A study of Mus musculus with 3 samples.

Results

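The 84 genes described here encode nuclear subunits of the oxidative phosphorylation system and a few close relatives. They were taken by symbol from the 27998 genes of the files: names starting with Nduf, Uqcr or Atp5, Sdha to Sdhd, and names starting with Cox4i, Cox5, Cox6, Cox7 or Cox8. Ndufa4, the Ndufaf assembly factors and names with Rik were left out. This gave 37 genes of complex I, 4 of complex II, 8 of complex III, 18 of complex IV and 17 of complex V. In all, 81 had at least 20 unique molecular identifiers (UMIs, counted RNA molecules) in a library, and 78 had that many in every library. The scarcest member inside this limit was Ndufa4l2, with at most 29 UMIs in a library. Cox7b2, Cox8b and Cox8c had 0 UMIs in each of the 3 libraries. The name rule also admits Ndufa4l2, Cox7a2l, Atp5s and Atp5sl, which are relatives or cofactors rather than standard subunits.

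Oxidative phosphorylation is the chain of protein complexes in the inner mitochondrial membrane that passes electrons from NADH and succinate to oxygen and uses the proton gradient so formed to make ATP. Complex I takes electrons from NADH, complex II from succinate, complex III passes them to cytochrome c, complex IV reduces oxygen, and complex V is the ATP synthase. Most subunits are encoded in the nucleus and some in mitochondrial DNA, so the complexes are built from transcripts of both genomes. In macrophages the balance between this chain and glycolysis is known to shift with activation and with oxygen supply.

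The cells came from C57BL/6J mice with subcutaneous B16-F10 tumors, a mouse melanoma line. The groups were blood of WT control mice that carried the tumor, tumor of WT control mice, and tumor of a Treg-depleted FoxP3 DTR mouse, a strain in which a diphtheria toxin receptor is expressed from Foxp3 so that regulatory T (Treg) cells can be removed. The age of the mice, the toxin schedule and any pooling of animals are not given in the sources used here. Live CD45+ cells lacking CD90, NK1.1, Ly6G, B220 and SigF and positive for CD11b, CD11c or both had been sorted, after enzyme digestion for tumor and red cell lysis for blood, and run as 10x Chromium 3′ v2 libraries. Each group has 1 library, so no test between groups was possible. Depletion, genotype and library cannot be told apart, nor can tissue and preparation in the comparison of tumor with blood.

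After filtering, control blood held 5550 barcodes, the control tumor 4443 and the Treg-depleted tumor 4434, with medians of 3550, 6452 and 3820 UMIs. Between 27 and 36 kept barcodes were shared by any pair of libraries, where 26.7 to 33.4 would be expected if barcodes were drawn independently. Foxp3 itself had 0, 1 and 0 UMIs in the sorted cells, so the depletion could not be checked in these libraries. The 7 myeloid lineage markers were detected in every library. The other marker lists differed between libraries in their summed levels, given as UMIs per 1000000 UMIs of the library (CPM). The 3 C1q genes, which mark tissue macrophages, summed to 46.6 CPM in control blood, 5735 CPM in the control tumor and 1045 CPM with Treg depletion. The 10 neutrophil markers summed to 1569, 31.3 and 190, and the 5 melanoma markers to 0.050, 16 and 47.9. Their part in the values over all barcodes was not tested, and values within marker-gated types are therefore given beside them.

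The members took up 2.57% of the UMIs of control blood, 2.50% of the control tumor and 2.97% of the Treg-depleted tumor. Complex IV genes had the largest part in that gap, with 0.704%, 0.724% and 0.939%. Complex II genes, the only complex with a lower share in the Treg-depleted tumor than in both other libraries, took up 0.0576%, 0.0598% and 0.0428%. For complex I the shares were 0.792%, 0.732% and 0.808%, for complex III 0.310%, 0.274% and 0.347%, and for complex V 0.702%, 0.712% and 0.838%. The 13 subunits encoded in mitochondrial DNA took up 2.46%, 2.39% and 2.82%, about as much RNA as the nuclear members together.

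Between the control tumor and control blood, the levels of these genes moved little as a group. The median log2 ratio of the 81 measured members was −0.05, and the medians of their 95% lower and upper bounds were −0.10 and 0.0016. Such bounds, printed in square brackets after single values, cover the counting of molecules only, not differences between mice or libraries. Over 11659 genes with at least 20 UMIs in either library the median was −0.29, so the members stood higher than the median gene. When ratios were scaled to the median gene in place of total UMIs, that is, to the median of the 7909 genes with at least 100 UMIs in both libraries (−0.32), the members' median became 0.27, so its sign depends on the scaling. The medians by complex were −0.14 for complex I, 0.07 for complex II, −0.19 for complex III, 0.19 for complex IV and −0.04 for complex V. Scaled to the median gene these became 0.17, 0.39, 0.13, 0.51 and 0.28.

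**Figure D1:**
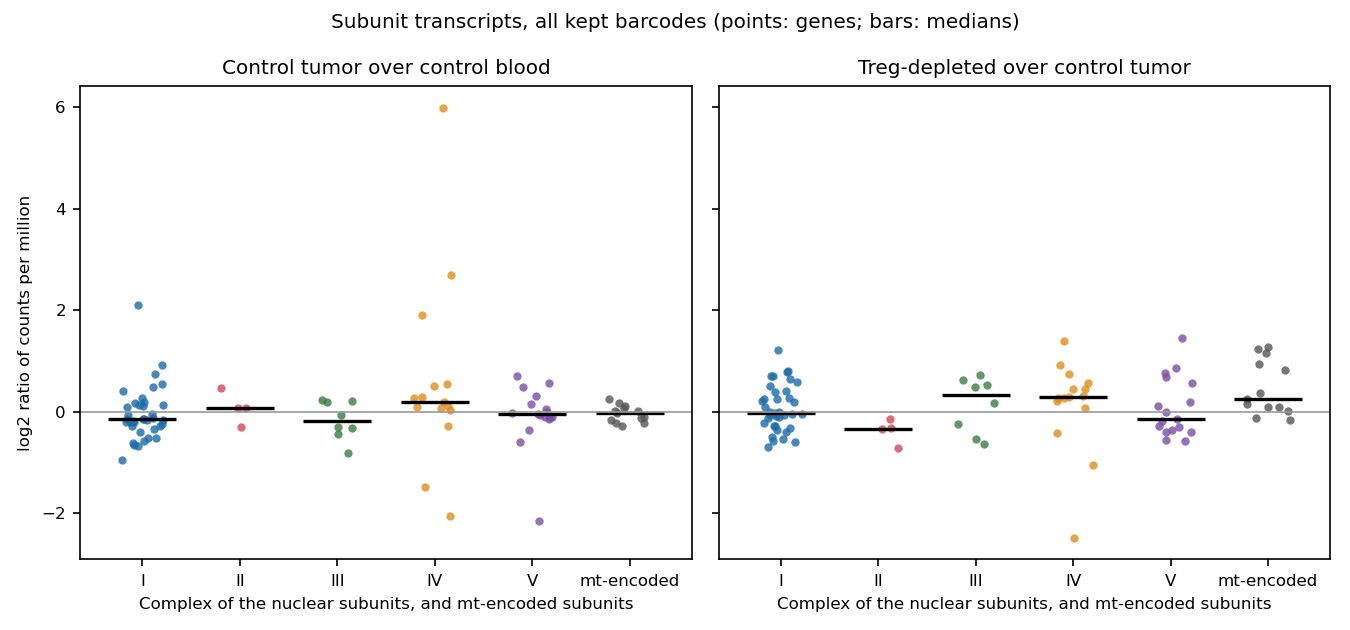
Log2 ratio of CPM (vertical axis) for each subunit gene, by complex and for the subunits encoded in mitochondrial DNA, in the control tumor over control blood (left) and the Treg-depleted over the control tumor (right). Bars are medians; in the right panel all 4 complex II genes lie below 0, while the medians of complexes III and IV are 0.34 and 0.28.

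Of the 81 members, 7 were at least 1.5-fold higher in the control tumor than in control blood, where 21.1% of all genes were, and 9 were at least 1.5-fold lower, where 37% of all genes were. Scaled to the median gene, 18 were higher and 4 lower, and the shares of all genes on that scale are not given. At 2-fold the counts were 4 higher and 3 lower, beside 15% and 22.8% of all genes. Scaled to total UMIs, the members thus had fewer large ratios in both directions than the genes at large. The lower members included Cox7a2l, Cox6b2, Atp5sl, Ndufa6, Uqcrh, Ndufb3, Ndufb10 and Atp5c1. The 7 higher members were Cox4i2, Cox7a1, Ndufa4l2, Cox6a2, Ndufa12, Ndufab1 and Atp5g1. Of the higher ones, 4 are tissue-restricted isoforms or their relatives, described further below. In every library these 4 were scarce beside the common subunits.

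Among common subunits, Ndufa12, an accessory subunit of complex I, was at 113 CPM in control blood, 213 CPM in the control tumor and 162 CPM in the Treg-depleted tumor. Its log2 ratio of tumor over blood was 0.91 [0.84, 0.98] over all barcodes. Within the Ly6c2-high, nonclassical monocyte, cDC2 and double-low gates it was 0.25 to 0.58, with an interval that held 0 in nonclassical monocytes. Ndufab1, the mitochondrial acyl carrier protein that is also a complex I subunit, was at 127, 213 and 195 CPM, a log2 ratio of 0.75 [0.68, 0.81], but its ratios within gates ran from 0.01 to 0.61 and their intervals held 0 in all but cDC2. Atp5g1, 1 of 3 genes for the c subunit of the ATP synthase ring, was at 328, 535 and 415 CPM (0.70 [0.66, 0.74]). All 3 genes had ratios above 0 in the 4 gates, each smaller than over all barcodes.

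On the lower side, Cox7a2l, a relative or cofactor admitted by the name rule, was at 583 CPM in control blood, 209 CPM in the control tumor and 156 CPM in the Treg-depleted tumor. Tumor over blood gave a log2 ratio of −1.48 [−1.52, −1.44] over all barcodes, −1.86 in Ly6c2-high, −1.73 in double-low, −1.33 in nonclassical and −1.05 in cDC2 cells. Its levels in the 2 tumor libraries were both far below blood, with a log2 ratio of −0.42 for the Treg-depleted over the control tumor. Ndufa6, an accessory subunit of complex I, was at 433, 224 and 299 CPM, a log2 ratio of −0.95 [−0.99, −0.91] for tumor over blood. Uqcrh, the hinge protein of complex III that contacts cytochrome c1, was at 920 CPM in blood, 523 CPM in the control tumor and 738 CPM in the Treg-depleted tumor, a ratio of −0.81 [−0.84, −0.78]. Both were thus lowest in the control tumor. Other common subunits past 1.5-fold included Ndufb3 (−0.68) and Ndufb10 (−0.66) of complex I and Atp5c1 (−0.59), the central stalk of the ATP synthase. Ndufab1, Uqcrh and Atp5c1 have named pseudogene copies, so their counts may include or lose reads of those copies.

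Cells were then assigned by marker counts to gates, which are ranges of counts and not clusters. Cells with at least 2 of 7 myeloid lineage markers and outside the other gates were C1q-high with at least 10 C1q UMIs per 10000. The rest were nonclassical monocytes by 2 of 6 markers, Ly6c2-high with at least 5 Ly6c2 UMIs per 10000 (Ly6c2 marks classical monocytes), or double-low. Many cells lay near a cut: within 2-fold of the C1q cut were 172 of 1946 C1q-high cells of the control tumor and 530 of 1259 of the Treg-depleted tumor. The median C1q count in this gate was 77.5 per 10000 in the control and 23.2 in the Treg-depleted tumor, so the gate does not hold equal cells in both.

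Within the gates, the members' medians for the control tumor over blood lay below 0, and how they stood to other genes depended on which genes were taken. The median log2 ratio was −0.32 in Ly6c2-high cells, −0.29 in nonclassical monocytes, −0.21 in double-low cells and −0.06 in cDC2. Over all genes with at least 20 UMIs in either library it was −0.43, −0.44, −0.29 and −0.31, so the members lay above it. Over the better counted genes, with at least 100 UMIs in both libraries, it was −0.10, 0.041, −0.26 and −0.14, so the members lay below it in Ly6c2-high cells and nonclassical monocytes. At least 1.5-fold lower were 17 of 77 members in Ly6c2-high cells (43.1% of all genes), 19 of 76 in nonclassical monocytes (44.2%), 11 of 77 in double-low cells (37%) and 6 of 76 in cDC2 (37.9%). In the same order 1, 0, 1 and 1 were at least 1.5-fold higher, beside 16.6%, 13.8%, 20.3% and 17.8%. Scaled to those better counted genes, the members' medians were −0.22, −0.33, 0.053 and 0.086 in the same order. Complex IV stood nearest to 0 in the Ly6c2-high, nonclassical monocyte and double-low gates, at −0.04, −0.09 and −0.03. Of 76 members measured in all 4 gates, 39 were below 0 in each of them (50.9% of all genes so measured) and 11 above 0 (22.1%). The 11 were Atp5b, Atp5g1, Atp5g3, Cox5a, Cox7a2, Cox7b, Ndufa12, Ndufab1, Ndufb6, Sdhc and Uqcrb, from 5 complexes.

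Between the Treg-depleted and the control tumor, the median over all members again lay near 0, but single members moved apart. The median log2 ratio was −0.0039, with medians of the bounds of −0.06 and 0.11, and −0.07 over 11383 genes. The values by complex were −0.02 for complex I, −0.33 for complex II, 0.34 for complex III, 0.28 for complex IV and −0.14 for complex V. At least 1.5-fold higher were 15 of 81 members, beside 17.1% of all genes, and 6 were at least 1.5-fold lower, beside 20%. Without barcodes above the 95th percentile of UMIs, 12 were lower, with no share of all genes given for that setting. At 2-fold the counts were 3 and 2, beside 7.63% and 8.63%. Both counts are near or under the background, and the pattern described next lies in which members were on which side. This comparison uses the same control tumor library as the one with blood.

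Apart from the scarce Cox7a1 and Ndufa4l2, the highest ratios mostly belonged to small accessory subunits. Atp5k, subunit e of the ATP synthase (chr5:108433244-108434448, minus strand, GRCm38), was at 192 CPM in control blood, 184 CPM in the control tumor and 506 CPM in the Treg-depleted tumor. The blood and control tumor levels nearly coincided and the Treg-depleted library stood alone, with a log2 ratio to the control tumor of 1.46 [1.415, 1.504], or 2.75-fold. Within the 5 gates compared, the ratio of Atp5k ran from 1.45 to 1.71. Atp5k also has a named pseudogene copy, so its count is uncertain to that extent.

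Cox7c, a small membrane subunit of complex IV (chr13:86044816-86046904, minus strand), was at 556, 587 and 1105 CPM in the 3 libraries in the same order, a log2 ratio of 0.91 [0.89, 0.94] between the tumors. Atp5e, the epsilon subunit of the ATP synthase stalk, was at 568, 528 and 964 CPM (0.87 [0.84, 0.90]). Atp5l, subunit g of the synthase, was at 1154, 1067 and 1801 CPM (0.75 [0.73, 0.77]). All 3 repeated the order of Atp5k over all barcodes, with control blood and control tumor close together and the Treg-depleted tumor above both. Within the 4 gates of control tumor over blood, Atp5e ran from −0.38 to −0.05, Atp5l from −0.35 to −0.01 and Cox7c from −0.23 to 0.02. Cox6c of complex IV was at 590, 604 and 1010 CPM (0.74 [0.71, 0.77]). In complex I the highest common members were Ndufc1, at 148, 217 and 380 CPM (0.81 [0.76, 0.85]), and Ndufa3, at 245, 172 and 297 CPM (0.79 [0.74, 0.84]), both small subunits of the membrane arm. Ndufa3 is an exception to the order, since its Treg-depleted level was nearer to blood than to the control tumor. Also past 1.5-fold were Uqcr11 (0.72) and Uqcrq (0.63) of complex III, Ndufa1 (0.70), Ndufv3 (0.70) and Ndufa2 (0.65) of complex I, and Atp5g3 (0.69), another c subunit gene.

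The lowest ratios among abundant members mostly belonged to large subunits that carry redox centers, catalytic sites or the core of complex III. Sdhb, the iron-sulfur subunit of succinate dehydrogenase (chr4:140961203-140979193, plus strand), was at 289 CPM in control blood, 304 CPM in the control tumor and 185 CPM in the Treg-depleted tumor. Its log2 ratio between the tumors was −0.71 [−0.77, −0.66]. Over all barcodes the other complex II genes were lower too: Sdha, the flavoprotein, −0.35, and the membrane anchors Sdhd −0.32 and Sdhc −0.15. Within the 5 gates compared, only Sdhb of this complex was below 0 in each. Sdha ran from −0.64 to 0.32, Sdhd from −0.43 to 0.12 and Sdhc from −0.19 to 0.24. Ndufs8, an iron-sulfur subunit of complex I (chr19:3908863-3912774, minus strand), was at 205, 163 and 101 CPM, a ratio of −0.69 [−0.76, −0.61]. Its level thus stepped down from blood to control tumor to Treg-depleted tumor. Uqcrc1, a core protein of complex III, was at 251, 201 and 129 CPM (−0.64 [−0.70, −0.57]) and followed the same order. Atp5b, the catalytic beta subunit of the ATP synthase, was at 523, 737 and 495 CPM (−0.57 [−0.61, −0.54]), highest in the control tumor. Also near this end of the list were Ndufv2 (−0.58), Uqcrc2 (−0.54) and Ndufa9 (−0.54), the isoforms Cox6a2 and Cox6b2, and Atp5sl (−0.56).

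The members were then grouped by role, a grouping made after these values had been seen and therefore given without a test. The 19 core genes are the 7 conserved nuclear subunits of complex I, the 4 of complex II, Uqcrc1, Uqcrc2 and Uqcrfs1 of complex III, and the 5 F1 genes Atp5a1, Atp5b, Atp5c1, Atp5d and Atp5e. Of these, 18 were below 0 in the Treg-depleted over the control tumor, where 54.5% of all genes were, and Atp5e was the exception. Their median was −0.40, and they ranged from −0.71 to 0.87. Accessory here means every other measured member apart from the restricted isoforms and relatives. In complex V it therefore includes the c subunit genes Atp5g1, Atp5g2 and Atp5g3, and also Atp5f1 and Atp5o. Of 54 accessory genes, 36 were above 0, where 45.5% of all genes were, with a median of 0.25. All 10 accessory genes of complex IV and all 5 of complex III were above 0, while those of complex I were split, 15 above and 14 below. Complex III was thus divided within itself: its 3 core genes had a median of −0.54 and its 5 accessory genes one of 0.52.

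The division was then counted within gated types. The gates are parts of the same barcodes whose values led to the grouping, so they are no independent repeat of it. Below 0 were 16 of the 19 core genes in Ly6c2-high cells (51.4% of all genes), 17 in double-low cells (50.2%), 17 in C1q-high cells (51.7%), 13 in cDC2 (56.2%) and 14 in the mature DC gate (54.2%). Above 0 were 49, 43, 43, 51 and 32 of the 54 accessory genes, where 48.6%, 49.8%, 48.3%, 43.8% and 45.8% of all genes were. The gates were not alike: core genes stood nearest to the share of all genes in cDC2, and accessory genes in the mature DC gate. Of 75 members measured in all 5 gates, 33 were above 0 in each (18.8% of all genes so measured) and 13 below 0 in each (28.3%). Of the 13, 10 are core genes, among them Atp5b, Atp5c1, Atp5d, Ndufs8, Ndufv2, Sdhb, Uqcrc1, Uqcrc2 and Uqcrfs1, and the others are Atp5f1, Cox6b2 and Ndufa9. For the control tumor over blood, 15 of the 19 core genes were below 0, where 62% of all genes were, and the accessory genes were split 29 above and 25 below, where 38% of all genes were above. These counts depend on where 0 is set: with ratios scaled to the median gene, 6 core genes were below 0 and 47 accessory genes above. Shares of all genes on that scale are not given. The gap between the medians of core (−0.28) and accessory genes (0.07) does not depend on that scaling, which moves all genes alike.

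Within gates, the median of all members in the Treg-depleted over the control tumor was 0.18 in Ly6c2-high, 0.22 in double-low, 0.20 in C1q-high, 0.39 in cDC2 and 0.01 in mature DC cells, and over all genes it lay between −0.09 and −0.01. At least 1.5-fold higher were 19 of 78, 19 of 78, 22 of 81, 21 of 75 and 11 of 78 members, beside 18.9%, 23.3%, 19.4%, 13.5% and 16.7% of all genes. At least 1.5-fold lower were 1, 10, 6, 2 and 7 members, beside 14.6%, 19.9%, 20.7%, 20.9% and 22.6%. The cDC2 gate thus held the largest share of higher members relative to its background, from 88 cells in the Treg-depleted and 225 in the control tumor. Complex II was below 0 in 4 gates (−0.36 to −0.17) and at 0.16 in the mature DC gate, where the medians of its bounds were −0.22 and 0.53. Complexes III and IV were above 0 in all 5 gates. The mature DC gate of the control tumor had a median of 15149 UMIs per cell and of 30.9 C1q UMIs per 10000, against 7456 and 2.91 in the Treg-depleted tumor, so it holds barcodes with macrophage transcripts as well. When gates were set on counts thinned to 1000 UMIs per cell, its member median became 0.25.

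**Figure D2:**
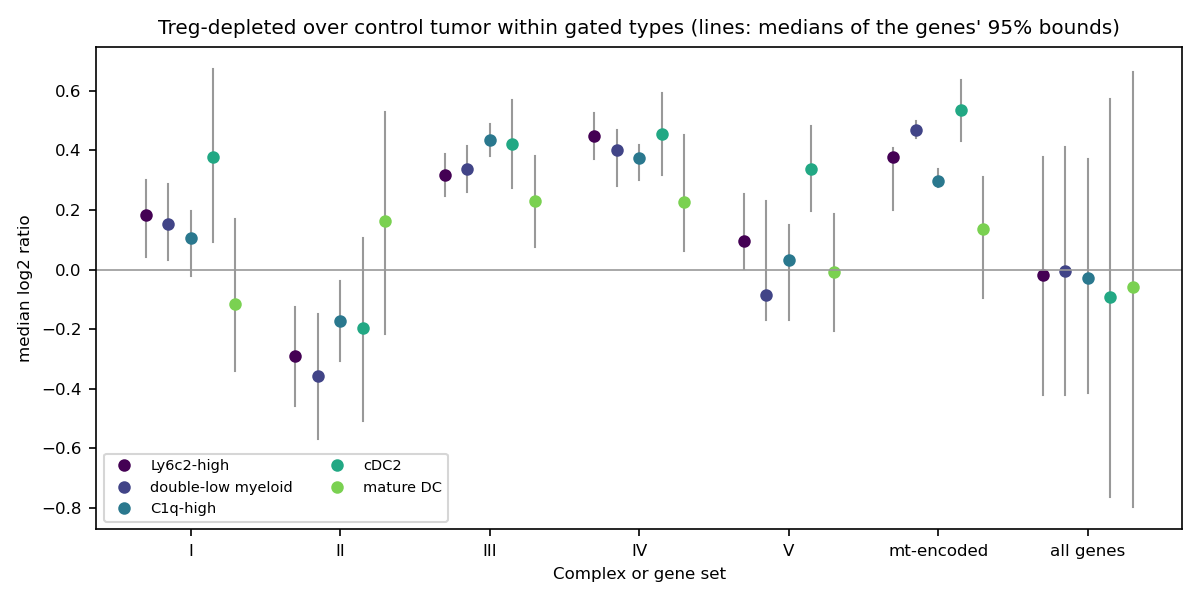
Median log2 ratio of the Treg-depleted over the control tumor (vertical axis) by complex, for subunits encoded in mitochondrial DNA and for all genes, in each of 5 gated types; lines join the medians of the genes' lower and upper 95% counting bounds. Complexes III and IV lie above 0 in all 5 gates, and complex II lies below 0 in all but the mature DC gate.

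Accessory subunits are mostly small proteins with short transcripts, so transcript length was set beside the ratios, again after the values had been seen. The median annotated transcript length of the 81 members ran from 321.5 nt (Atp5k) to 2675.5 nt (Atp5g1), with a median of 704 nt. This is a median over the annotated transcripts of a gene, and the length of the RNA present in these cells was not measured. Between the Treg-depleted and the control tumor the ratio fell with length, with a Spearman correlation of −0.61 over the 81 genes, which share the same libraries. It was −0.84 over the 17 genes of complex V, −0.53 over the 37 of complex I and −0.26 over 15 of complex IV. For the 72 members with at least 1000 UMIs in both tumor libraries it was −0.69. Between the control tumor and blood it was −0.04. The 28 members of up to 600 nt had a median ratio of 0.47 and the 53 longer ones −0.14. With the longest annotated transcript in place of the median, the Spearman correlation between the tumors was −0.59 over the 81 genes.

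Other genes of the members' length range followed a like order. Medians over all genes were 0.22 for 188 genes of up to 500 nt, 0.0066 for 256 of 500 to 600 nt, −0.14 for 904 of 600 to 800 nt, −0.29 for 788 of 800 to 1000 nt and −0.31 for 1619 of 1000 to 1500 nt. In the same ranges the members' medians were 0.70 (11 genes), 0.28 (17), 0.19 (21), −0.23 (13) and −0.35 (13), and 75 of the 81 members lay in them. Beyond 1500 nt the medians of all genes were higher again, up to 0.19 over 4000 nt, and over all 10885 genes with a length the Spearman correlation was 0.21. The order was also seen in the 82 genes of the cytosolic ribosome, at −0.53, where Rpl38 (1.37) and Rps28 (1.27) were highest and Rplp0 (−0.99) and Rpl3 (−0.93) lowest. Over 76 genes of the mitochondrial ribosome, of which only 5 had a length of up to 600 nt, it was −0.12. Role and length overlap and cannot be fully separated in 81 genes. Among core genes over 800 nt, 16 of 16 were below 0, with a median of −0.40. Among accessory genes of the same length range, 11 of 13 were below 0, with a median of −0.13, while 21 of the 24 accessory genes of up to 600 nt were above 0, with a median of 0.47. Of all genes of any length, 54.5% were below 0 and 45.5% above, and shares within these length ranges are not given. The median over all genes of up to 600 nt was 0.09. Of the core genes of up to 600 nt, Atp5e (421 nt) was at 0.87 and Uqcrc1 (533 nt, with longer annotated transcripts) at −0.64. What lies behind the order by length was not tested.

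**Figure D3:**
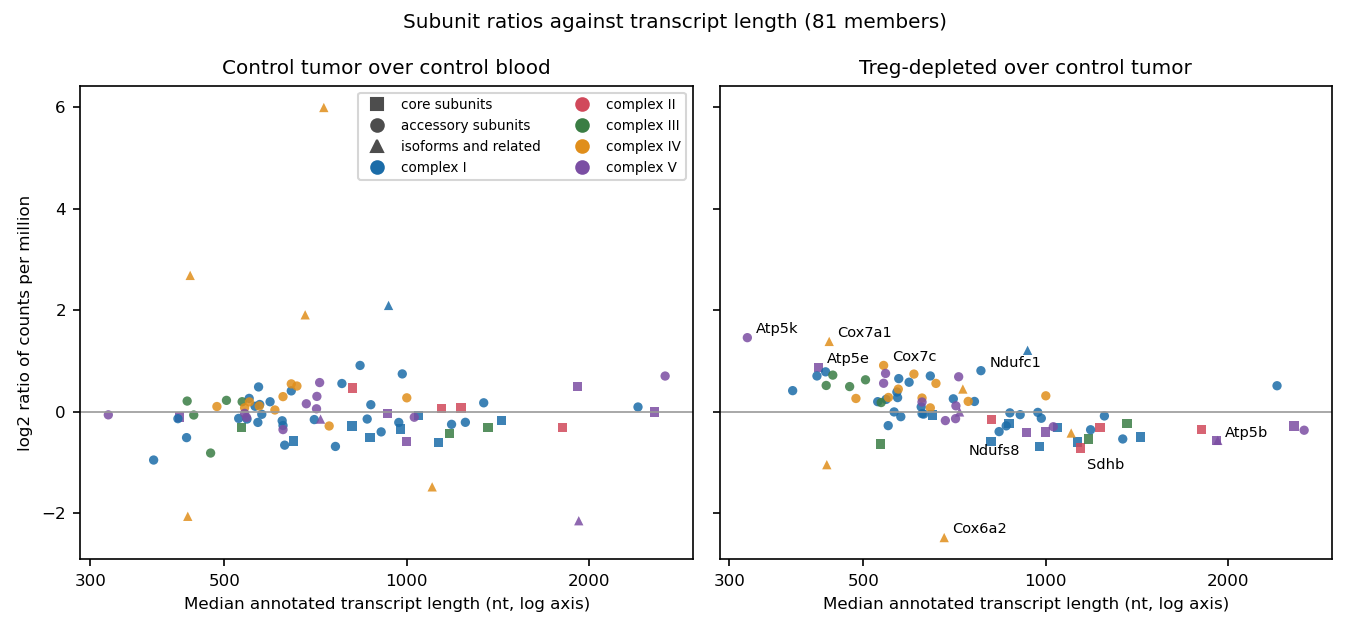
Log2 ratio of CPM (vertical axis) against the median annotated transcript length of each of 81 members (horizontal log axis, nt), for the control tumor over control blood (left) and the Treg-depleted over the control tumor (right); colors give the complex and shapes the role. The right panel slopes down from Atp5k at 1.46 to Atp5b at −0.57, and the left panel has no slope (Spearman −0.04).

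Promoters were read for members at both ends of this order, to show the sequence in front of genes that moved apart. RefSeq windows (GRCm38.p6, 250 bases before the start) existed for 69 of the 84 members. They were searched on both strands for GCGCA and GCGC with 1 base of any kind between them, the letters bound by nuclear respiratory factor 1 (NRF1), for CCGGAAG, the ETS-type letters bound by GABP (also called NRF2), and for AAGATGGC, a YY1 motif. Matches to different motifs were allowed to overlap. Below, capitals mark a match. Bases that GENCODE places inside the gene are left out, apart from the match in Atp5k. The windows are chr5:108434440-108434649 (minus strand), chr2:174464106-174464351 (minus), chr13:86046905-86047045 (minus), chr4:140961021-140961202 (plus) and chr19:3912775-3913024 (minus), each printed 5′ to 3′.
Atp5k: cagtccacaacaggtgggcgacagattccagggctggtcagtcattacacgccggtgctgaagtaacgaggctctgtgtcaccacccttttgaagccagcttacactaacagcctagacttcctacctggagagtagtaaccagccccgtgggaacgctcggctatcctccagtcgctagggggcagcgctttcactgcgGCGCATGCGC
Atp5e: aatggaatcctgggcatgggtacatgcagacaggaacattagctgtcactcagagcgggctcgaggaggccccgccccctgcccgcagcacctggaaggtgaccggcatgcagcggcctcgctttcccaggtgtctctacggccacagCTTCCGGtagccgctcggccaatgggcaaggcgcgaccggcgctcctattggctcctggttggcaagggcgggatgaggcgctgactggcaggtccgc
Cox7c: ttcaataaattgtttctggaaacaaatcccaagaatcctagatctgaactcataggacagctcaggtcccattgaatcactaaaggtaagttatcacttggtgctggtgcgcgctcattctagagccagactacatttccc
Sdhb: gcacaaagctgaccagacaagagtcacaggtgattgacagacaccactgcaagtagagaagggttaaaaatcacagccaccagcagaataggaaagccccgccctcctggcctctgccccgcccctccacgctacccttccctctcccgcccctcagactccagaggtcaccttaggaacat
Ndufs8: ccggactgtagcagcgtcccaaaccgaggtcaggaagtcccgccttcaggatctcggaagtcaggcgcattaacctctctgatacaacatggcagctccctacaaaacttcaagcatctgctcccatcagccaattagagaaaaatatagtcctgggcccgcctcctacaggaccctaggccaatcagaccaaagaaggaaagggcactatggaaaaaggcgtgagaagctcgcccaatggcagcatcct

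In Atp5k the NRF1 letters lay 50 to 41 bases before the start and read the same on both strands. In Atp5e the ETS letters lay 102 to 96 bases before the start on the opposite strand. The windows of Cox7c, Sdhb and Ndufs8 held none of the 3 motifs. Over all members, 12 of 69 windows held the NRF1 letters (17.4%, beside 3.86% of 27025 windows of all genes), 11 the ETS letters (15.9%, beside 7.05%) and 0 the YY1 letters (beside 1.59%). Any of the 3 was found in 20 members. These 20 had a median ratio of 0.25 in the Treg-depleted over the control tumor and a median transcript length of 570 nt, and the 47 measured members without a match had −0.06 and 763 nt, so motif and length move together here. Both ends of the order thus held promoters without a match.

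The tissue-restricted isoforms of complex IV behaved one by one. These genes replace a common subunit in muscle, lung, testis or other tissues. Cox4i2, the isoform known for regulating complex IV at low oxygen (chr2:152754173-152765037, plus strand), had 0 UMIs in control blood, 373 UMIs in the control tumor and 255 UMIs with Treg depletion. With blood set to a floor of 3 UMIs over the library (0.151 CPM), the control tumor at 9.64 CPM was 63.7-fold higher, a value set by that floor. Its common partner Cox4i1 was at 1482, 1220 and 1405 CPM, far above Cox4i2 in each library.

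Cox4i2 was detected in most gated types of the tumor. In the control tumor it was at 12.96 CPM [11.4, 14.6] in C1q-high, 7.08 in double-low, 4.52 in Ly6c2-high and 2.82 in cDC2 cells, and in the Treg-depleted tumor at 17.5 [14.3, 21.2], 12.5, 12.1 and 4.13 CPM. C1q-high cells had the highest level of these 4 gates in both tumors, though in the Treg-depleted tumor its interval overlapped that of double-low cells. The Ly6c2-high cells of the 2 tumors differed most, with a log2 ratio of 1.42 and counting intervals that did not overlap, 2.80 to 6.91 and 9.48 to 15.2 CPM. In plasmacytoid DC of the control tumor and in 99 neutrophils of the Treg-depleted tumor Cox4i2 had 0 UMIs. Thinned to 1000 UMIs per cell, 0.90% of control tumor cells and 1.22% of Treg-depleted tumor cells had a Cox4i2 UMI, and unthinned 5.63% and 4.26%. Of 5550 blood cells 0 had one, which at a limit of 3 cells allows a share of up to 0.0541% of cells with a UMI.

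Cox7a1, the heart and skeletal muscle form of subunit VIIa (chr7:30184144-30186078, plus strand), was at 0.908 CPM in control blood, 5.84 CPM in the control tumor and 15.3 CPM in the Treg-depleted tumor. The log2 ratios were 2.69 [1.99, 3.47] for the control tumor over blood and 1.39 [1.13, 1.64] between the tumors. Control and Treg-depleted levels were 7.57 and 22.8 CPM in C1q-high cells, 3.76 and 16.3 CPM in double-low cells, 3.44 and 9.13 CPM in Ly6c2-high cells, and 7.02 and 20.6 CPM in the mature DC gate. Of these, the double-low cells had the largest log2 ratio, 2.11. Its common partner Cox7a2 was at 378 CPM in blood and 537 and 791 CPM in the tumors. The 2 VIIa genes thus had the same order of libraries at very different levels.

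Cox6a2, the muscle form of subunit VIa (chr7:128205435-128206387, minus strand), had most of its UMIs in 1 gate. It was at 4.44, 16.7 and 2.99 CPM over all barcodes. The plasmacytoid DC gate, set with markers that include none of the members, held 68 of its 88 UMIs in blood (22 cells), 542 of 645 in the control tumor (76 cells) and 46 of 58 in the Treg-depleted tumor (8 cells). Within that gate its level was 948, 1294 and 831 CPM, with counting intervals of 736 to 1202, 1187 to 1408 and 608 to 1108 CPM. In the control tumor it exceeded the common Cox6a1 in the same cells, which was at 635 CPM; these 3′ UMI counts hold 1 tag per molecule and are not divided by length. Thinned to 1000 UMIs, 57.9% [46.0, 69.1] of plasmacytoid DC of the control tumor had a Cox6a2 UMI (85.5% unthinned), beside 0 to 0.885% in its other gates of at least 50 cells. The median depth was 4983 UMIs in the plasmacytoid DC and 4379 to 15149 UMIs in those other gates. Between the tumors the ratio over all barcodes was −2.48 [−2.89, −2.09]. Outside that gate, which held 76 and 8 cells, the ratio was of like size, −2.12 [−3.12, −1.25], from 103 UMIs in the control and 12 UMIs in the Treg-depleted tumor. In C1q-high cells, the only gate compared, it was −2.46 [−4.37, −1.04]. The plasmacytoid DC gate asks for at least 3 markers, so cells of this type with fewer stay outside it. Summed over all barcodes, its 7 markers were also lower with Treg depletion, at 29.0 CPM beside 114.6 CPM for the control tumor. The part of such cells, or of their transcripts in other barcodes, in the ratios outside the gate was not tested.

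Cox6b2, the testis form of subunit VIb (chr7:4751792-4753094, minus strand), ran the other way, at 28.3 CPM in control blood, 6.80 CPM in the control tumor and 3.30 CPM with Treg depletion. Its log2 ratio was −2.06 [−2.28, −1.85] for the control tumor over blood and −1.04 [−1.46, −0.64] between the tumors. It was lower in the control tumor than in blood in all 4 gates, by −2.31 to −1.11, and lower in the Treg-depleted than in the control tumor in all 5, by −1.97 to −0.95. In blood it was highest in cDC2, at 46.6 CPM [37.0, 58.0], then 39.0 in double-low, 29.6 in Ly6c2-high and 16.2 CPM in nonclassical cells. The intervals of cDC2 and double-low cells (31.8 to 47.4 CPM) overlapped. Its partner Cox6b1 was at 692, 744 and 891 CPM, in the opposite order.

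Of the relatives, Ndufa4l2, a relative of Ndufa4 known for induction at low oxygen and placed under complex I by its name, had 0 UMIs in blood, 25 UMIs in the control tumor and 29 UMIs with Treg depletion. Against a blood floor of 3 UMIs the control tumor was 4.27-fold higher, a value set by that floor. Atp5sl, a relative of Atp5s with a known role in complex I assembly, was at 26.7, 6.02 and 4.07 CPM, a log2 ratio of −2.15 [−2.38, −1.92] for tumor over blood and −2.62 to −2.25 within the 4 gates. Atp5s itself was at 1.72, 1.55 and 1.55 CPM, with no difference beyond counting error.

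**Figure D4:**
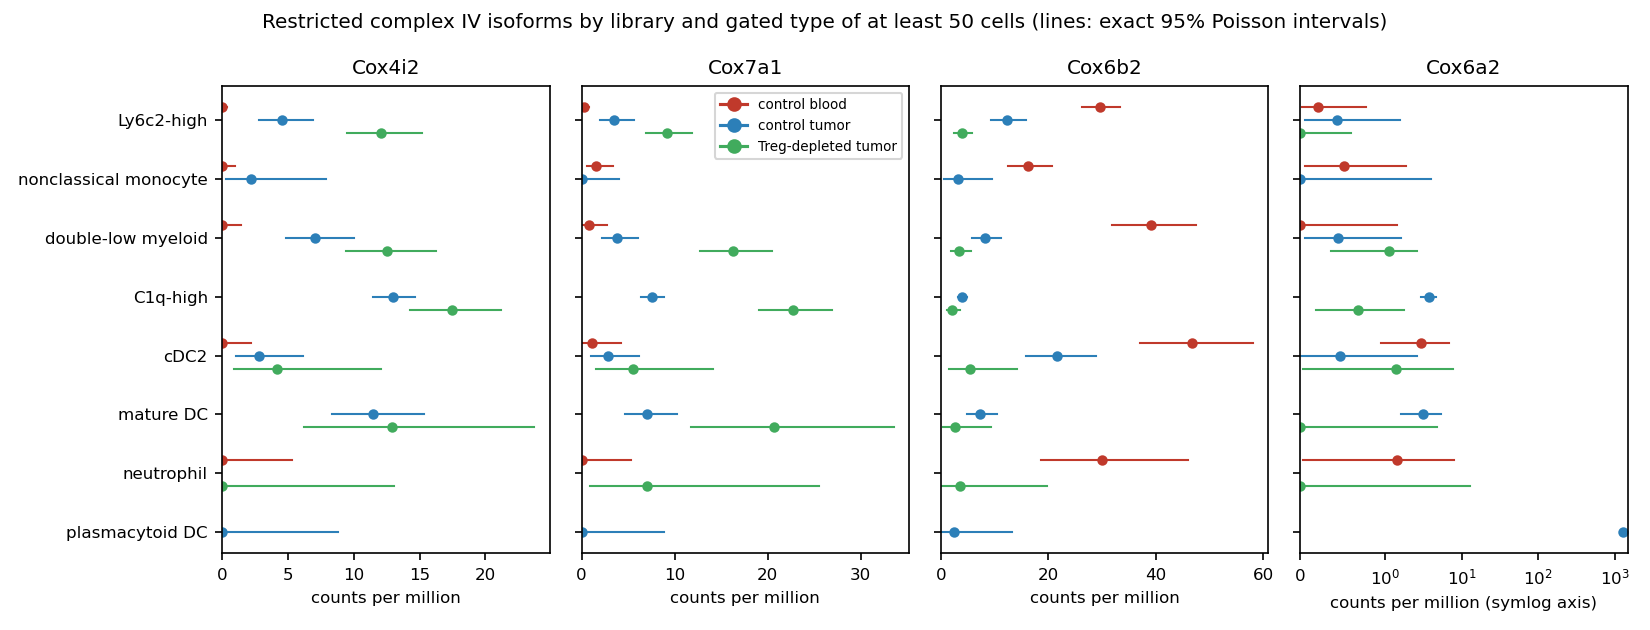
Level (horizontal axis, CPM; Cox6a2 on an axis linear near 0 and logarithmic above) of 4 restricted complex IV isoforms in each gated type with at least 50 cells, by library; lines are exact 95% Poisson intervals. Cox4i2 and Cox7a1 are near 0 in blood and higher in the tumors, Cox6b2 is highest in blood, and Cox6a2 reaches 1294 CPM in plasmacytoid DC of the control tumor.

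Over all barcodes, the subunits encoded in mitochondrial DNA differed little between control tumor and blood. Their median log2 ratio was −0.02 and their range −0.28 to 0.24, and none of the 13 passed 1.5-fold. Scaled to the median gene, the median was 0.30. Within gates the median was lower, at −0.37 in Ly6c2-high, −0.23 in nonclassical, −0.29 in double-low and −0.54 in cDC2 cells. All but mt-Atp8 and mt-Nd6 were below 0 in all 4 gates, as were 50.9% of all genes so measured. For example, mt-Co1 ran from −0.71 to −0.35 and mt-Nd3 from −0.75 to −0.33. mt-Atp8 ran from −0.55 to 0.40, and mt-Nd6, measured in 1 gate, was at 0.29. The range of transcript levels within a library was wide, from 4.59 CPM for mt-Nd6 to 6412 CPM for mt-Atp6 in blood.

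Between the tumors the median of these 13 genes was 0.25, with 11 above 0 (45.5% of all genes) and 5 at least 1.5-fold higher (17.1%). mt-Nd3 was at 98.4 CPM in control blood, 96.9 CPM in the control tumor and 234 CPM in the Treg-depleted tumor, a log2 ratio of 1.27 [1.21, 1.34] between the tumors. mt-Atp8 was at 42.3, 50.03 and 118 CPM (1.24 [1.15, 1.32]), mt-Nd6 at 4.59, 4.65 and 10.3 CPM (1.15 [0.85, 1.45]) and mt-Nd4l at 33.6, 30.1 and 57.5 CPM (0.93 [0.81, 1.05]). These are the 4 shortest of the 13 genes, at 204 to 519 nt. On the same strand, mt-Atp8 (chrM:7766-7969) overlaps mt-Atp6 (chrM:7927-8607), and mt-Nd4l (chrM:9877-10173) overlaps mt-Nd4 (chrM:10167-11544). How reads were divided within these pairs was not tested, so the separate ratios of their genes are uncertain. mt-Co1, the catalytic subunit of complex IV and 1545 nt long, was the other gene past 1.5-fold, at 4750, 3917 and 6973 CPM (0.83 [0.82, 0.84]). mt-Co3 (0.38), mt-Co2 (0.25), mt-Nd2 (0.15), mt-Nd1 (0.09), mt-Nd5 (0.09) and mt-Nd4 (0.02) were nearer to 0, and mt-Cytb (−0.12) and mt-Atp6 (−0.16) were below it. Kept barcodes held at most 10% mitochondrial UMIs, with medians of 2.37%, 2.11% and 2.67% in the 3 libraries, and the part of this share in the result was not tested.

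**Figure D5:**
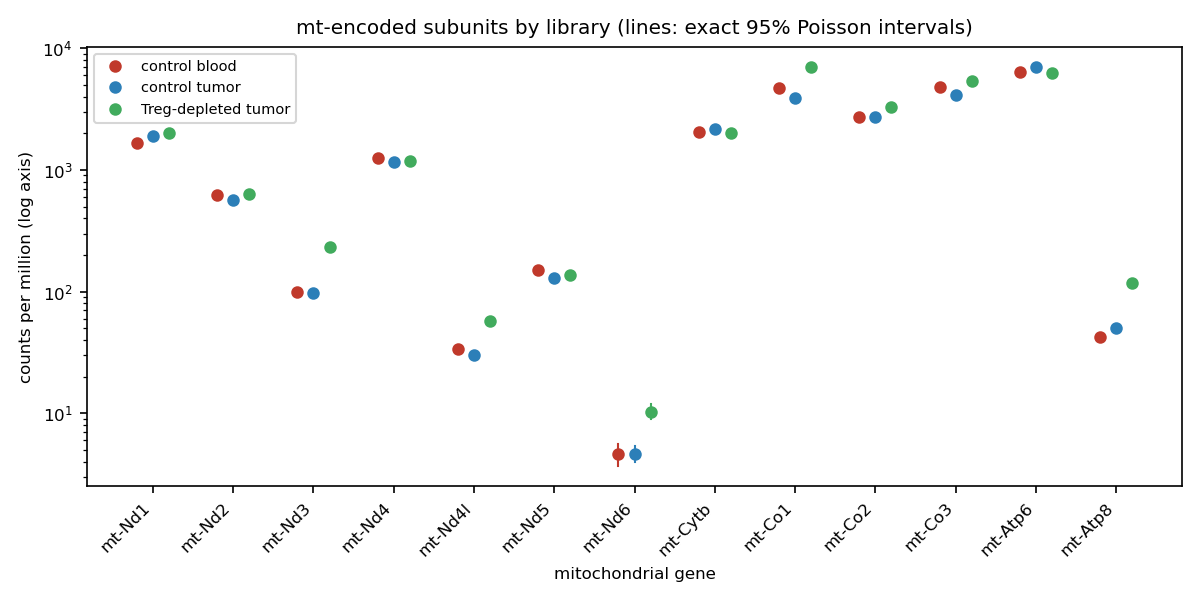
Level (vertical log axis, CPM) of the 13 subunits encoded in mitochondrial DNA in the 3 libraries; lines are exact 95% Poisson intervals, mostly smaller than the points. The Treg-depleted tumor stands apart for mt-Nd3, mt-Nd4l, mt-Nd6, mt-Atp8 and mt-Co1.

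Other genes of the pathway, from lists of genes rather than from their values, were set beside the members. Of 37 assembly factors, 4 were at least 1.5-fold higher and 15 lower in the control tumor than in blood (median −0.39), beside 21.1% and 37% of all genes. Between the tumors 4 were higher and 9 lower in the Treg-depleted one (−0.36), beside 17.1% and 20% of all genes. Cox17, the copper chaperone of complex IV, was the highest in the latter, at 143 CPM in blood, 276 CPM in the control tumor and 785 CPM in the Treg-depleted tumor (1.51). Ndufaf7, an assembly factor of complex I, was lowest in both comparisons (−1.79 and −1.14). Of the carriers, cytochrome c (Cycs) was at 338, 571 and 732 CPM, while Cyc1, the cytochrome c1 of complex III, was at 119, 150 and 96.1 CPM. Cyc1 thus lay with the core genes of its complex, below 0 between the tumors (−0.64).

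Of 13 citrate cycle genes, which feed the chain, 0 were at least 1.5-fold higher and 5 lower between the tumors (median −0.31), beside 17.1% and 20% of all genes, with Idh3a (−0.90) and Fh1 (−0.80) lowest. Of 8 uncoupling and carrier genes, 3 were lower, beside the same 20%, among them the ADP/ATP exchangers Slc25a4 (−0.90) and Slc25a5 (−0.64). In the other comparison, 9 of 13 glycolysis genes were at least 2-fold higher in the control tumor than in blood (median 1.23), beside 15% of all genes, with Tpi1 at 107, 450.4 and 530 CPM and Pfkp at 52.3, 201 and 254 CPM. Between the tumors 3 of 13 were at least 1.5-fold higher, beside 17.1% of all genes, led by Hk2, the inducible hexokinase, at 61.7, 76.1 and 202 CPM (1.41). Of 11 measured regulators only Tfam, the factor that packs mitochondrial DNA, is given here. It was at −1.37 in the control tumor over blood and −0.32 between the tumors. No median or count is given for this list, so Tfam does not stand for the regulators as a group.

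Types were also compared within a library, against the Ly6c2-high cells of the same library, so both sides of a ratio share a preparation. Depth could still differ: C1q-high and Ly6c2-high cells had medians of 8644 and 5052 UMIs in the control tumor. In the Treg-depleted tumor these were 4191 and 4187 UMIs. In C1q-high cells the members' median was 0.27 in the control tumor (all genes 0.13) and 0.25 in the Treg-depleted tumor (0.11). At least 1.5-fold higher were 12 of 81 members in the control tumor, beside 23.5% of all genes, and 5 of 78 in the Treg-depleted tumor, beside 14.6%. The members thus stood slightly above the median gene in both tumors, with few large ratios. The median of the mitochondrially encoded subunits was 0.48 and 0.46. Ndufa5 (0.89 and 0.72), Ndufc1 (0.78 and 0.72) and Cox7a1 (1.14 and 1.32) were among the highest in both tumors, and Cox6b2 was lowest in both (−1.64 and −0.94).

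Neutrophils had the lowest share of these transcripts. In the Treg-depleted tumor the members took up 1.22% of the UMIs of the 99 gated neutrophils, against 2.77% in Ly6c2-high and 3.33% in C1q-high cells. In blood the gap was smaller, 2.13% in 213 neutrophils and 2.68% in Ly6c2-high cells. In the Treg-depleted tumor 74 of 78 members were at least 1.5-fold lower than in Ly6c2-high cells, where 45.4% of all genes were, and the median was −1.31, beside −0.45 over all genes. All 5 complexes shared this, from −1.50 for complex II to −1.13 for complex IV, and the mitochondrially encoded subunits were at −1.08.

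Cox4i1, the common form of subunit IV, was at 622 CPM in these neutrophils and 1349 CPM in Ly6c2-high cells. Ndufb5, an accessory subunit of complex I, had the lowest ratio, −2.90, from 8 UMIs in neutrophils. Atp5sl alone was counted as higher, where 21.6% of all genes were, but it had 0 UMIs in neutrophils, so its sign comes from the floor of 3 UMIs. The lists of cytosolic (−1.34) and mitochondrial (−1.28) ribosomal proteins were as low as the members, and glycolysis genes were at −0.43. In blood 14 of 76 members were at least 1.5-fold lower in neutrophils, beside 31.7% of all genes, with medians of −0.38 for members and −0.30 for all genes. The sort removed Ly6G+ cells, so these are the neutrophils that passed it.

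Among dendritic cells of the control tumor, 16 of 76 members were at least 1.5-fold higher in the 94 cells of the cDC1 gate than in Ly6c2-high cells, beside 19.8% of all genes, with a median of 0.34 led by Ndufab1 (1.12) and Ndufa12 (0.95). In the plasmacytoid DC gate 21 of 77 were, beside 37.4%, with a median of 0.26. Mitochondrially encoded subunits were higher there than nuclear ones: their median was 0.67, 10 of 13 were at least 1.5-fold higher, and they took up 3.22% of UMIs. In 103 B cells of blood the same list was at 0.67 with 11 of 13 at least 1.5-fold higher, beside 28% of all genes, while the nuclear members were at −0.22.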

How the data were processed

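Single-cell RNA was counted in 3 libraries of sorted mouse myeloid cells. Per the submitters' processing notes, Cell Ranger 1.2 and mm10 were used. For each library the authors deposited raw counts, whole UMIs over 27998 genes and 737280 barcodes, so cells were called anew: at least 1000 UMIs, at least 400 genes and at most 10% mt- UMIs. Kept barcodes held 19823533, 38680457 and 19392626 of the 22944387, 42493416 and 23291061 deposited UMIs of blood, control tumor and Treg-depleted tumor. Counts were summed per library or gate and divided by the total (CPM). Log2 ratios carry exact conditional binomial 95% intervals, CPM exact Poisson and shares Clopper-Pearson intervals, all for counting error only; a count of 0 was set to 3. A ratio needed at least 20 UMIs in either class, and gates at least 50 cells in both. The calculation was tested on simulated counts.

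Gates used fixed marker lists without any member: at least 3 markers of a list for lymphoid, neutrophil, basophil, plasmacytoid DC, cDC1, mature DC, melanoma and fibroblast gates, 2 of 5 for cDC2. No doublet caller was run; barcodes with markers of several lists were left ungated, and an alternative removed the barcodes above the 95th percentile of UMIs. Named genes were the 2 highest and 2 lowest per complex, members past 1.5-fold, restricted isoforms with their partners, mt- genes and the extremes of each list, some given only by range; other names were chosen after their values were seen, and 1 member that the rule names is not reported here. The members and lists were chosen with earlier results of these data known; role, length, promoter motifs and comparisons of Treg-depleted tumor with blood were added after seeing the data. Lengths and positions are from GENCODE M21 (GRCm38), which held 27645 of the 27998 identifiers and all 84 members. Of these, 12 overlap another gene on the same strand, 6 of them a coding one (Ndufa13, Ndufb2, Ndufb8, Ndufb9, Cox4i1 and Atp5o), and Ndufab1, Uqcrh, Atp5c1, Atp5k and Atp5l have named pseudogenes, so their counts are uncertain. Python 3.11.15, numpy 2.4.6, scipy 1.17.1, pandas 2.3.3 and matplotlib 3.10.9 were used.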

Additional observations from a re-analysis of the deposited data

How the results depend on the processing

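Over all barcodes 8 alternatives were tried, and 11 within gates. No paired analysis was possible because each group has 1 library. With 1 library per group no library could be left out either. Scaling to the median gene moved every ratio over all barcodes of the control tumor over blood by the same amount, so medians near 0 changed sign and those of complexes II and IV did not. Under scaling to the median gene ratio, the control tumor over blood gave medians of 0.27 for all members, 0.17, 0.39, 0.13, 0.51 and 0.28 for complexes I to V, 0.30 for mt- subunits, −0.22 in Ly6c2-high and 0.053 in double-low cells, with 18 members at least 1.5-fold higher and 4 lower. The Treg-depleted over the control tumor gave 0.31 in double-low cells and 0.27 for mt- subunits. With totals without mt- and ribosomal protein UMIs, tumor over blood gave −0.13 for members, −0.22, −0.0080, −0.27, 0.11 and −0.12 for complexes I to V and −0.43 in Ly6c2-high cells, and between the tumors 0.31 for complex IV and 0.28 for mt- subunits. With the mean of per-cell CPM, tumor over blood gave −0.12 for members, −0.23, 0.12 and −0.11 for complexes I, IV and V, and between the tumors 0.27 and 0.24 for complexes III and IV and 0.32 for mt- subunits. Without barcodes above the 95th percentile of UMIs, complex IV over blood was 0.14, mt- subunits between the tumors 0.29 and the count of members lower there 12 in place of 6. Shares of all genes past 1.5-fold are not given for this setting or for scaling to the median gene. At most 5% mt- UMIs gave 0.20 for mt- subunits, and gates on thinned counts 0.25 for the mature DC gate. At 2-fold, 4 members were higher and 3 lower in the control tumor than in blood, and 3 higher and 2 lower between the tumors. Core genes below 0 between the tumors numbered 18 as reported and under all but 1 alternative, the mean of per-cell CPM, with 17. At these depths the pattern among abundant members was far above counting error, while isoforms such as Ndufa4l2 rest on under 30 UMIs per library, and differences between mice could not be estimated.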
